A study of Mus musculus with 8 samples.

Results

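The mitochondrial ribosomal protein genes were taken as all genes whose name on the array began with Mrpl or Mrps followed by a digit. Of 34834 gene names on the array, 76 met this rule, 47 named for the large subunit (Mrpl) and 29 for the small subunit (Mrps). All 76 were among the 17884 genes tested, and the probe used for each was well above background on all 8 arrays. The choice of these genes used no measured value.

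Mitochondrial ribosomes translate the few proteins encoded by mitochondrial DNA, which are core subunits of the respiratory chain and ATP synthase. Their RNA is made in the mitochondrion, whereas every ribosomal protein is encoded in the nucleus, made in the cytosol and imported, so both subunits depend on a large set of nuclear genes. Many of the proteins have bacterial counterparts, and others are found in mitochondria alone. Of the 76 genes, 48 encode proteins of families also found in bacteria and 28 encode mitochondria-specific ones.

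B16 is an established mouse melanoma line. The series held 4 groups of 2 biological replicates, per the labels: untreated control cells labelled 0 h, cells given SEMA3E for 2 h, cells given SEMA3E for 8 h, and cells given cytochalasin D for 8 h. The study's title names plexin D1, the receptor through which the semaphorin SEMA3E acts, and cytochalasin D blocks the growth of actin filaments. The labels name no genetic change in any group, all cells were grown in medium with serum, and the controls were not matched in time to the treated groups. Doses were not given in the sources used here.

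Each sample was read on 1 array in 1 colour, and values are log2 of the processed signal minus the array's 75th percentile over probes well above background on all arrays. A difference of 1 is thus 2-fold, and a level on this scale is called a scaled log2 intensity. Both SEMA3E 2 h arrays were dim, with 75th percentiles of signal over all spots of 59.3 and 61.1, as was cytochalasin D replicate 2 at 66.8, against 111 to 154 on the other 5. Control spots of known content varied most on SEMA3E 2 h replicate 2, with a median coefficient of variation of 30.3% against 10.1% to 16.7% elsewhere. Control replicate 1 correlated best with SEMA3E 2 h replicate 1 (r = 0.987 across genes) and control replicate 2 with cytochalasin D replicate 1 (r = 0.993), so neither control array was closest to the other. All arrays shared 1 slide and 1 scan day, so array position and group cannot be told apart. All 8 pigment cell markers were measured, with group means from -0.90 to 5.30, whereas the 9 measured markers of other cell types, of 15 listed, ran from -9.04 to -3.78.

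The promoter windows of 5 genes described below are printed: Mrpl2, Mrps12 and Mrps18c read high at 2 h of SEMA3E on both arrays, Mrps5 low on both, and Mrps11 low on 1. Each runs from 250 bases before to 50 bases after the start given by RefSeq, build GRCm38.p6, 5′ to 3′ on the gene's strand. Capitals mark 4 short motifs, searched on both strands, so that a motif on the other strand appears as its reverse complement. The core bound by ETS factors was searched as CCGGAAG. For nuclear respiratory factor 1, a regulator of mitochondrial genes, the letters were CATGCGC. The E-box was CACGTG and the core of the zinc finger factor YY1 was AAGATGG. The Mrps5 window held none of these. The windows are chr17:46645971-46646270 (plus strand) for Mrpl2, chr7:28741772-28742071 (minus) for Mrps12, chr5:100798509-100798808 (plus) for Mrps18c, chr2:127587176-127587475 (plus) for Mrps5 and chr7:78782881-78783180 (plus) for Mrps11.
Mrpl2: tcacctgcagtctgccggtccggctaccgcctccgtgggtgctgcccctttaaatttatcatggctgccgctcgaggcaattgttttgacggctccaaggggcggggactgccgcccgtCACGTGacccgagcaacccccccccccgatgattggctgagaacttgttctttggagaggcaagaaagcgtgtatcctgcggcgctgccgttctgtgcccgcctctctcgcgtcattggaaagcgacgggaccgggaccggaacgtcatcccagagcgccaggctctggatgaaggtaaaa
Mrps12: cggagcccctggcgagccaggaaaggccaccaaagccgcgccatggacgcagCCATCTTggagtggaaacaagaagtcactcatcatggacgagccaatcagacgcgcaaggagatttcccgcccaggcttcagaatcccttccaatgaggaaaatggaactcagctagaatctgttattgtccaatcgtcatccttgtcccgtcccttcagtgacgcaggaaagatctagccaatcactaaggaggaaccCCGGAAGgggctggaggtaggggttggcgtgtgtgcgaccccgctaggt
Mrps18c: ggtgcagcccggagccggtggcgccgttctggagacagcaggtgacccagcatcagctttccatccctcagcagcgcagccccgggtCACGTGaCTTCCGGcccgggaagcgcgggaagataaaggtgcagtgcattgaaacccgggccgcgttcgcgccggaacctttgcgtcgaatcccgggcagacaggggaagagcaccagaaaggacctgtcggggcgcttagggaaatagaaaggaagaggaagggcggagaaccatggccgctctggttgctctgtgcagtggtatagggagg
Mrps5: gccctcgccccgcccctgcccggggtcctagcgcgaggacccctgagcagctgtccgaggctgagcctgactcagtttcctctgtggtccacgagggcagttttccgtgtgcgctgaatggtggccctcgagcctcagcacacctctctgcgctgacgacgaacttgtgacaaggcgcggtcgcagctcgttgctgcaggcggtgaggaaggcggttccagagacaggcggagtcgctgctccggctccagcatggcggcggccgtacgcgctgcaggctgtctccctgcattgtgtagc
Mrps11: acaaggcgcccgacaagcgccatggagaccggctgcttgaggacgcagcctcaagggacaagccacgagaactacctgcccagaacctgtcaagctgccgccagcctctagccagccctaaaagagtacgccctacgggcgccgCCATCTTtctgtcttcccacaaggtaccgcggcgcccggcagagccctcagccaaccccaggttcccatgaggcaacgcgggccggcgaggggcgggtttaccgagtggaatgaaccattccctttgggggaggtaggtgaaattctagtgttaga

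RefSeq windows were matched for 67 of the 76 genes and numbered 73, since some genes have several starts. The ETS core was present in 24 of the 73 windows (32.9%) and in 8.86% of all 32851 windows of this length. The YY1 core was in 17.8% against 6.34% of all, the nuclear respiratory factor 1 letters in 11% against 3.91%, and the E-box in 9.59% against 7.15%. The ETS and YY1 cores can share letters, and 0 of the 73 windows held them overlapping, against 5 of all 32851. CpG dinucleotides were dense, with a median of 21 per window against 7 in all. A start of another gene on the opposite strand lay within 1000 bases upstream for 27 of the windows (37.0%), against 11.3% of all. Mrps11 and Mrpl46 are such a pair, head to head with starts 42 bases apart, so a gene of each subunit starts within the printed window. The other 4 printed genes also face a neighbour. Mrps12 lies head to head with Sars2, the mitochondrial seryl-tRNA synthetase, with starts 147 bases apart. The distance was 141 bases from Mrpl2 to Klc4, 159 from Mrps18c to Helq and 332 from Mrps5 to Zfp661. A match to a motif is a description of the letters and not evidence of a bound factor.

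The genes varied less between arrays than most. For 44 of the 76 (57.9%) all 8 arrays lay within 2-fold, against 39.6% of all genes tested, and the median range over the arrays was 0.91 log2 units against 1.16. The set was also brighter than most, with a mean of 0 or higher for 52 of the 76 against 4005 of the 17884 genes. The spread was not compared among genes of like brightness. The arrays nevertheless differed in how high the set stood. Measured as the deviation from each gene's own mean, the median of the 76 genes was 0.17 and -0.19 on the control arrays, and 0.21 and 0.23 on the SEMA3E 2 h arrays. At 8 h it was -0.07 and -0.01 with SEMA3E, and -0.06 and -0.26 with cytochalasin D. Both SEMA3E 2 h arrays were the highest, control replicate 1 came close to them, and control replicate 2 was the lowest but one. Within the controls, replicate 1 was higher than replicate 2 for 55 of the 76 genes, by a median of 0.33.

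**Figure D1:**
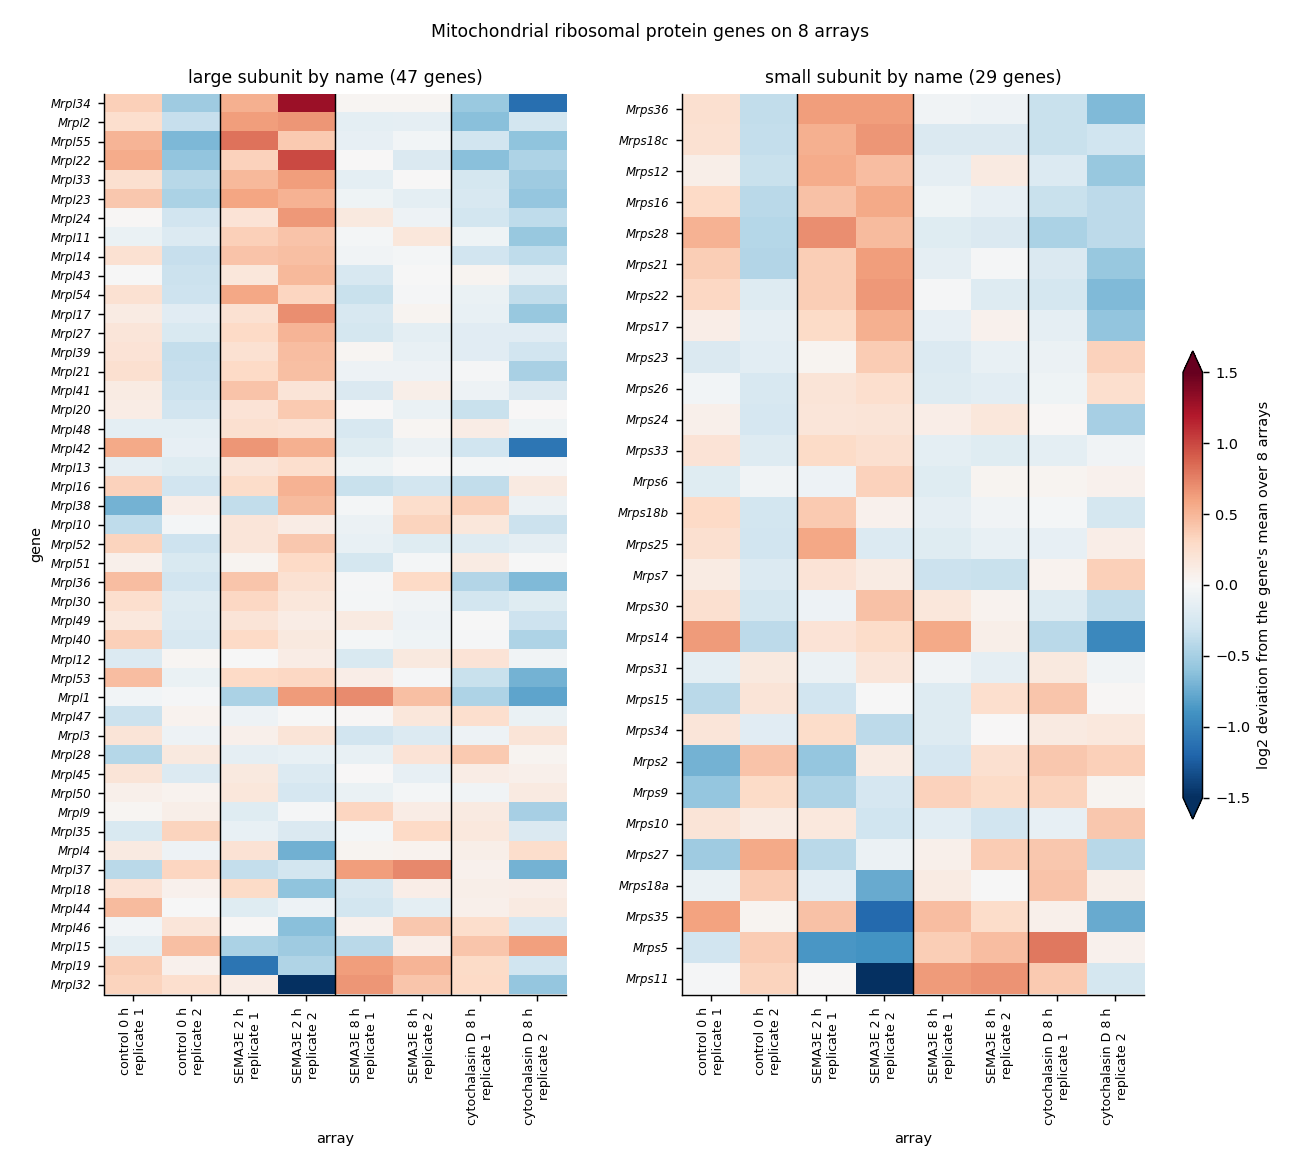
Heat map of the 76 genes (rows) on the 8 arrays (columns), large subunit left and small subunit right, coloured by log2 deviation from the gene's mean over the arrays and ordered by the difference between SEMA3E 2 h and control. Red runs through both SEMA3E 2 h columns in the upper rows and also through control replicate 1, and a few genes such as Mrpl32 and Mrps11 are dark blue on SEMA3E 2 h replicate 2 alone.

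No mitochondrial ribosomal protein gene passed the test in any comparison (limma, with p-values adjusted by Benjamini-Hochberg over all genes and a threshold of 0.05). Among all 17884 genes the shares that passed were 0% for SEMA3E 2 h against control, 0.00559% for SEMA3E 8 h against control, 0% for cytochalasin D against control, 0.00559% for cytochalasin D against SEMA3E at 8 h, and 0% for SEMA3E 8 h against 2 h. The members' count of 0 is thus near the background and says nothing particular about them. The standard error of a difference had a median of 0.30 log2 units for these genes and 0.34 for all genes, which with 2 arrays per group sets what could be seen.

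After 2 h of SEMA3E most of these genes read higher than in control. The difference was above 0 for 54 of the 76 genes, with a median of 0.24 and quartiles of -0.07 and 0.43, against a median of 0.05 over all genes, of which 54.7% were above 0. At an unadjusted p under 0.05 there were 6 of the 76 genes (7.89%), Mrpl34, Mrps18c, Mrps36 and Mrpl2 higher and Mrpl19 and Mrps5 lower, against 9.52% of all genes. Both SEMA3E 2 h arrays lay above the other 6 arrays for 25 genes (32.9%), against 10.2% of all genes, and below them for 4 genes, Mrps5, Mrpl19, Mrps18a and Mrpl15 (5.26%), against 6.77%. The share above was thus larger than that over all genes, and the share below was near it. No such share was taken among genes of like brightness. Of the 4005 genes with a mean over all arrays of 0 or higher, 66.7% read above control at 2 h. Scaling by the median of all probes moved the median of all genes to -0.53 and left 9 of the 76 genes above 0. Under both scalings 52 of the 76 lay above the median of all genes. That count could not change, because a scaling shifts all genes of an array equally. With the background modelled by normexp in place of the scanner's subtraction, 30 of the 76 lay above it. With control replicate 2 left out the members' median was 0.12 and that of all genes 0.11, and with control replicate 1 left out they were 0.42 and 0.00.

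In the large subunit, Mrpl2 encodes the counterpart of bacterial uL2, which lies beside the peptidyl transferase centre. Its scaled log2 intensity was 2.59 and 1.98 in control, 2.96 and 3.0 after 2 h of SEMA3E, 2.18 and 2.21 after 8 h, and 1.71 and 2.06 with cytochalasin D. Both 2 h arrays were above all others, while control overlapped both 8 h groups. The difference from control at 2 h was 0.69 ± 0.29 (SE), with an adjusted p of 0.516. Mrpl34, a small protein of the bacterial bL34 family, read 0.83 and -0.07 in control, 1.0 and 1.75 at 2 h, 0.50 and 0.49 at 8 h, and -0.09 and -0.67 with cytochalasin D. Its 2 h arrays were highest, though replicate 1 was only 0.17 above control replicate 1, and the difference was 0.99 ± 0.41 (adjusted p = 0.516). Mrpl33, of the bL33 family, differed by 0.65 ± 0.30 (adjusted p = 0.516) with no overlap between the groups.

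Among large subunit genes that read lower at 2 h, Mrpl19 was low on both arrays and Mrpl32 on 1. Mrpl19, the counterpart of bacterial bL19, read -1.40 and -1.70 in control, -2.86 and -2.21 at 2 h, -1.13 and -1.25 at 8 h, and -1.47 and -2.05 with cytochalasin D. Its 2 h arrays were below all others, and the difference from control was -0.99 ± 0.33 (adjusted p = 0.512). Mrpl32, of the bL32 family and cut to its mature form by the mitochondrial m-AAA protease, read -2.21 and -3.82 at 2 h against -1.98 and -2.06 in control. SEMA3E 2 h replicate 1 was thus close to the controls and replicate 2 far below, for a difference of -0.99 ± 0.53 (adjusted p = 0.549). Mrpl15 stood at 0.79 and 0.73 at 2 h against 1.11 and 1.71 in control, a difference of -0.65 ± 0.31 (adjusted p = 0.517).

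In the small subunit, Mrps12 encodes the counterpart of uS12, a protein of the decoding centre that in bacteria is the site of streptomycin resistance mutations. It read 1.90 and 1.49 in control, 2.38 and 2.29 at 2 h of SEMA3E, 1.69 and 1.96 at 8 h, and 1.62 and 1.26 with cytochalasin D, so that the 2 h arrays were above all others. The difference was 0.64 ± 0.28 (adjusted p = 0.516). Mrps36 read 0.42 and -0.19 in control, 0.81 and 0.81 at 2 h, 0.13 and 0.10 at 8 h, and -0.15 and -0.49 with cytochalasin D. The 2 h arrays were equal to 2 decimals and above all others, for a difference of 0.70 ± 0.29 (adjusted p = 0.516). Although named for the small subunit, its protein is known as a component of the 2-oxoglutarate dehydrogenase complex of the citric acid cycle.

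Mrps5, the counterpart of uS5, which in bacteria bears on the accuracy of decoding, had the widest gap of any of the 76 genes between a group and the other 6 arrays. It read -2.17 and -1.50 in control, -2.75 and -2.77 at 2 h, -1.51 and -1.42 at 8 h, and -1.09 and -1.82 with cytochalasin D. The nearest array outside the 2 h group was 0.58 log2 units higher, and the difference from control was -0.92 ± 0.35 (adjusted p = 0.516). Mrps11, the platform protein uS11, read -1.48 and -1.12 in control and -1.43 and -3.23 at 2 h, so the groups overlapped and 1 array carried the difference of -1.03 ± 0.56 (adjusted p = 0.549). Its head-to-head neighbour Mrpl46, of the central protuberance, differed by -0.37 in the same comparison, with -0.39 and -1.03 at 2 h against -0.46 and -0.23 in control. SEMA3E 2 h replicate 2 was the lowest array for both. That array was also the lowest for other members, among them Mrpl4, Mrpl18, Mrpl32 and Mrps35, so this is not particular to the pair.

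**Figure D2:**
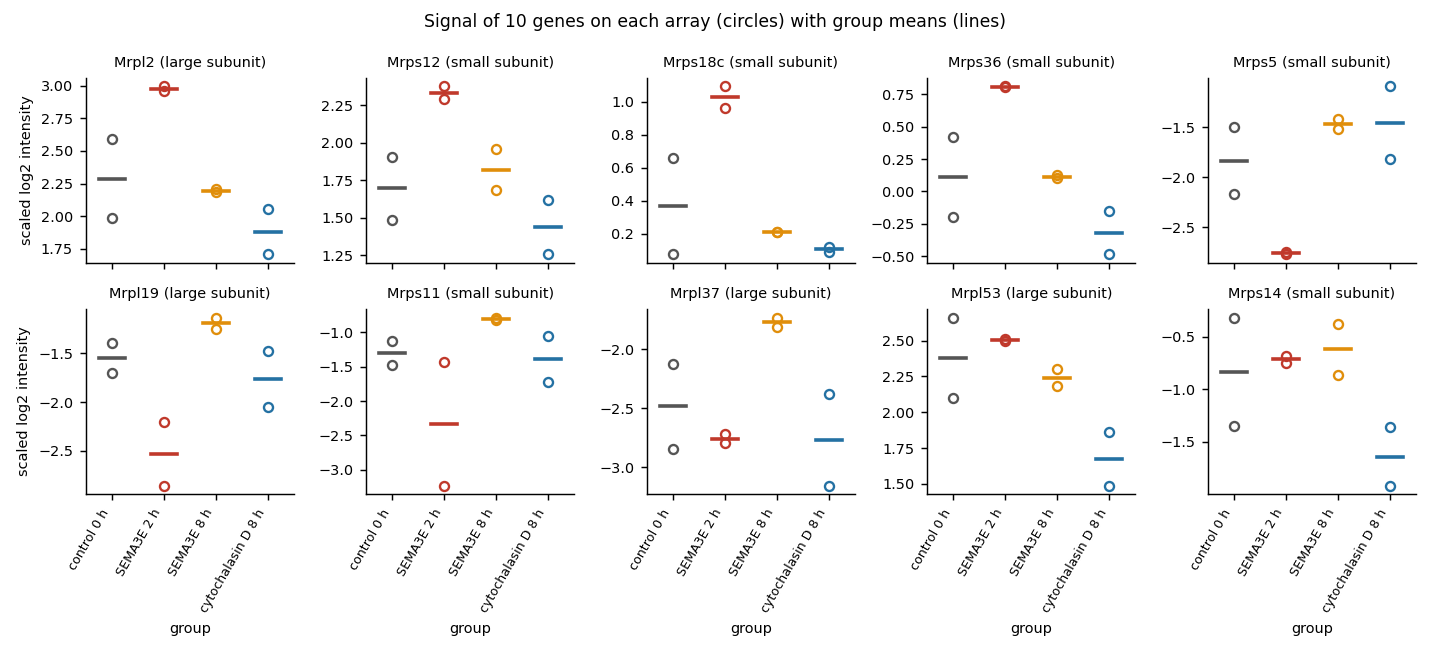
Scaled log2 intensity of 10 genes on each array (circles, 2 per group) with the group means (lines); the vertical scale differs between panels and levels are not comparable between genes. Mrpl2, Mrps12, Mrps18c and Mrps36 stand highest at 2 h of SEMA3E and Mrps5 and Mrpl19 lowest, while the 2 circles of Mrps11 at 2 h lie at -1.43 and -3.23.

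Grouped by place in the ribosome, the 5 genes at the polypeptide exit tunnel had a median difference of 0.56 at 2 h, from -0.02 for Mrpl45, which tethers the ribosome to the inner membrane, to 0.68 for Mrpl22, a protein of the tunnel wall. The 7 genes of the central protuberance ran from -0.37 for Mrpl46 to 0.69 for Mrpl55. The 3 genes of the stalk and its base, where elongation factors bind, ran from 0.14 for Mrpl12 to 0.54 for Mrpl11. Of the 4 genes beside the peptidyl transferase centre, Mrpl4 was the lowest at -0.28 and Mrpl2 the highest. Second probes of Mrpl22 and Mrpl4 read -0.06 and 0.16 in this comparison. In the small subunit, the 8 head genes ran from -0.69 for Mrps35 to 0.27 for Mrps24, with a median of 0.08, and the 13 body and platform genes from -1.03 for Mrps11 to 0.64 for Mrps12, with a median of 0.26. None of these genes passed the test, and the groups' ranges overlapped widely.

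The sign of the 2 h difference moved with the brightness of the probe, a split made after the values were seen. Of the 52 genes whose mean over all arrays was 0 or higher, 45 were above control at 2 h, with a median of 0.37, against 66.7% and a median of 0.16 over the 4005 genes of all those tested in the same range. Of the 9 genes with a mean below -1, 1 was above control, with a median of -0.69, against 51.4% and a median of 0.02 over 12241 genes in that range. Mrps5, Mrpl19, Mrpl32, Mrps11 and Mrps35 are among these 9. The part of signal strength in the 2 h differences was not tested. With the background modelled by normexp in place of the scanner's subtraction, the median of all genes at 2 h moved to 0.39 and that of the 76 genes was 0.26, so that the set stood below the median gene, the opposite of the order given above.

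At 8 h of SEMA3E the set sat near control. The difference was above 0 for 40 of the 76 genes, with a median of 0.02 against 0.11 over all genes, of which 62.5% were above 0. The unadjusted p was under 0.05 for 0 of the 76 genes, against 6.02% of all genes. Single arrays turned the direction: 57 of the 76 genes were above 0 without control replicate 1, with a median of 0.14, 27 without control replicate 2, with a median of -0.21, and 29 without SEMA3E 8 h replicate 2, with a median of -0.05. Scaling by the 75th percentile over all probes moved the median of all genes to -0.10 and the members above 0 to 13, so the direction here rests on the scaling. Scaling by the median of all probes moved these to -1.04 and 0. That median lies among probes not well above background, since 37.8% to 48.2% of spots cleared background on an array. Negative control spots had a mean net signal of 41.6 on SEMA3E 8 h replicate 2, against 17.9 to 22.3 on the other arrays. The part of background in this shift was not tested. Relative to the median of all genes, 24 of the 76 lay above under all 3 scalings, a count that a scaling cannot change. Under quantile normalization 46 lay above.

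Both SEMA3E 8 h arrays were above the other 6 for 4 genes, Mrpl37, Mrps11, Mrpl19 and Mrpl32, a share of 5.26% against 7.99% of all genes. They were below the other 6 for Mrpl3 and Mrps7, a share of 2.63% against 4.76%. Neither share exceeded the background. Mrpl37, a mitochondria-specific protein, read -2.85 and -2.12 in control, -2.80 and -2.72 at 2 h, -1.81 and -1.73 at 8 h, and -2.38 and -3.16 with cytochalasin D. The 8 h arrays stood above all others by 0.31, and the difference from control was 0.71 ± 0.36 (adjusted p = 0.861). Mrpl44, whose protein has a ribonuclease III fold, was lower at 8 h, with 0.35 and 0.48 against 1.1 and 0.63, a difference of -0.45 ± 0.26 (adjusted p = 0.876). Mrps7, the head protein uS7, read 1.31 and 1.3 at 8 h against 1.76 and 1.43 in control, a difference of -0.29 ± 0.26 (adjusted p = 0.914). All 9 genes with a mean below -1 were above control at 8 h, with a median of 0.35, against 68.7% and a median of 0.23 over all genes in that range.

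With cytochalasin D for 8 h, 52 of the 76 genes were below control. The median difference was -0.15 against 0.02 over all genes, of which 52.5% were above 0. There were 2 genes at an unadjusted p under 0.05, Mrpl42 and Mrpl53, against 2.52% of all genes, a share of 2.63% that matches the background. Both cytochalasin D arrays lay below the other 6 for 6 genes, Mrpl53, Mrpl36, Mrpl42, Mrps22, Mrpl34 and Mrps14 (7.89%), against 6.24% of all genes, and above them for 0 genes, against 4.48%. Scaling by the median of all probes left 11 of the 76 above control, with a median of -0.15 over all genes. Leaving out control replicate 1 turned the members' median to 0.02, and leaving out control replicate 2 gave -0.31. Without cytochalasin D replicate 2, whose signal was low, the median was -0.05.

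Mrpl42, which is mitochondria-specific, read 0.10 and -0.58 in control, 0.19 and 0.07 at 2 h of SEMA3E, -0.65 and -0.56 at 8 h, and -0.76 and -1.55 with cytochalasin D. Its cytochalasin D arrays were the lowest, replicate 1 by 0.11, and the difference from control was -0.91 ± 0.36 (adjusted p = 0.999). Mrpl53, also mitochondria-specific, read 2.66 and 2.10 in control, 2.50 and 2.51 at 2 h, 2.30 and 2.18 at 8 h, and 1.87 and 1.49 with cytochalasin D. The difference was -0.71 ± 0.29 (adjusted p = 0.999), with no overlap between the groups. Mrps14, the head protein uS14, read -1.36 and -1.91 with cytochalasin D against -0.32 and -1.35 in control, which left a gap of 0.01 between the groups and a difference of -0.80 ± 0.40 (adjusted p = 0.999). Of the genes that read higher, Mrps2, the counterpart of uS2, had the largest difference at 0.52 ± 0.44 (adjusted p = 0.999). Its control arrays, at -1.47 and -0.34, lay on either side of the cytochalasin D arrays at -0.36 and -0.41, and without control replicate 1 the difference was -0.05.

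The treatments at 8 h were matched in time. Cytochalasin D was below SEMA3E for 47 of the 76 genes, with a median of -0.17 against -0.13 over all genes, of which 39.7% were above 0. Unadjusted p was under 0.05 for 3 genes, Mrpl1, Mrpl37 and Mrps14 (3.95%), all lower with cytochalasin D, against 10.9% of all genes. Mrpl1, the counterpart of bacterial uL1, whose stalk lines the exit path of tRNA in bacteria, read -4.04 and -4.30 with SEMA3E at 8 h and -5.21 and -5.54 with cytochalasin D. The difference was -1.20 ± 0.39 (adjusted p = 0.428) with no overlap, and the SEMA3E 2 h arrays at -5.23 and -4.11 spanned nearly that whole range. Mrpl37 differed by -1.0 ± 0.36 (adjusted p = 0.440) and Mrps14 by -1.02 ± 0.40 (adjusted p = 0.450). In the other direction, Mrpl15, the counterpart of uL15, read 0.85 and 1.35 with SEMA3E and 1.67 and 1.87 with cytochalasin D, a difference of 0.67 ± 0.31 (adjusted p = 0.473). The direction over the set rests on the scaling: by the 75th percentile over all probes 48 of the 76 were above 0, with medians of 0.08 for the set and 0.12 for all genes, and by the median of all probes 73 were, with medians of 0.82 and 0.85. It rests on 1 array as well, since without cytochalasin D replicate 2, a dim array, 38 of the 76 were above 0, with medians of -0.0016 for the set and -0.08 for all genes.

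**Figure D3:**
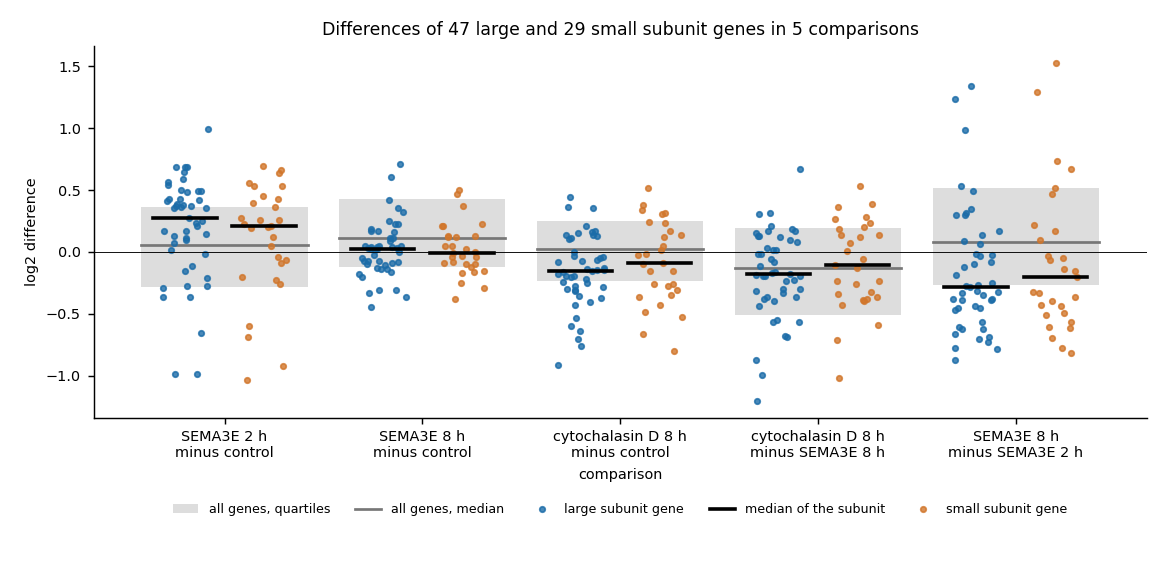
Log2 differences of the 47 large subunit genes (blue) and 29 small subunit genes (orange) in 5 comparisons, with the median of each subunit (black) and the median and quartiles over all 17884 genes (grey). The subunit medians lie within 0.08 of each other in every comparison and furthest from the all-gene median in SEMA3E 8 h against 2 h.

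Between 2 h and 8 h of SEMA3E, 54 of the 76 genes read lower at 8 h. The median difference was -0.28 against 0.08 over all genes, of which 55.9% were above 0. Scaling by the median of all probes gave 7 of the 76 above 0 and a median of -0.49 over all genes. With normexp the median was -0.23 for the set and -0.32 for all genes, so the order turned, and with quantile normalization they were -0.11 and -0.06. This comparison shares its 2 h arrays with that of 2 h against control, so both carry the same arrays' deviations. Unadjusted p was under 0.05 for 7 genes (9.21%), against 11.7% of all genes. Of these, 4 were higher at 8 h, Mrpl19 by 1.34 ± 0.33 (adjusted p = 0.368), Mrps5 by 1.3 ± 0.35 (adjusted p = 0.396), Mrps11 by 1.53 ± 0.56 and Mrpl37 by 0.99 ± 0.36 (both adjusted p = 0.412). The other 3 were lower at 8 h, Mrps18c by -0.82 ± 0.28, Mrpl2 by -0.78 ± 0.29 (both adjusted p = 0.412) and Mrps36 by -0.70 ± 0.29 (adjusted p = 0.426). Mrps11 passed the test when SEMA3E 2 h replicate 1 was left out, a setting in which 463 genes (2.59%) passed and in which the lone 2 h array was assumed to vary like the other groups. All 9 genes with a mean below -1 were higher at 8 h than at 2 h, with a median of 0.99, against 64.8% and a median of 0.21 over all genes in that range.

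Counted by group, the control arrays were both above the other 6 for 0 of the 76 genes, against 1.31% of all genes, and both below for Mrpl13 alone (1.32%), against 2.73%. Mrpl13 also had the smallest range of the 25 genes that stood above at 2 h. It read 2.58 and 2.54 in control, 2.89 and 2.97 at 2 h of SEMA3E, 2.65 and 2.71 at 8 h, and 2.69 and 2.70 with cytochalasin D. The 2 h arrays stood above and the controls below the rest, with every array within 0.43 log2 units.

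The large subunit median minus the small subunit median was 0.07 for SEMA3E 2 h against control, 0.04 for SEMA3E 8 h, -0.06 for cytochalasin D, -0.08 for cytochalasin D against SEMA3E at 8 h, and -0.08 for SEMA3E 8 h against 2 h. On single arrays the same quantity, over deviations from each gene's mean, ran from -0.01 to 0.06, with a standard deviation between replicates of 0.037. At 2 h of SEMA3E both arrays lay above the other 6 for 17 of the 47 large subunit genes (36.2%) and 8 of the 29 small subunit genes (27.6%). The share over all genes was 10.2%. Proteins named Mrps18a and Mrps30 sit in the large subunit, and placing those genes there and leaving Mrps36 out gave 0.03 at 2 h and -0.01 for SEMA3E 8 h against 2 h. Other settings set the subunits further apart. For SEMA3E 2 h against control the value was 0.12 with quantile normalization, 0.15 with the mean over a gene's probes, 0.23 with normexp and 0.22 from the authors' deposited table. For SEMA3E 8 h against 2 h it was -0.18 with the mean over probes, -0.21 with normexp and -0.25 from the authors' deposited table. No test of the difference between subunits was made, because genes read on the same arrays are not replicates.

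By origin, the genes of families shared with bacteria had a median 2 h difference of 0.25 (34 of 48 above 0) and the mitochondria-specific genes 0.23 (20 of 28). Between SEMA3E 8 h and control the values were 0.03 and -0.04, and between cytochalasin D and control -0.16 and -0.08. Mammals carry 3 paralogs of bacterial bS18, which take different positions in the ribosome, and at 2 h these did not read alike. Mrps18c was at 0.96 and 1.09 at 2 h, against 0.66 and 0.07 in control, 0.21 and 0.21 at 8 h, and 0.09 and 0.12 with cytochalasin D, for a 2 h difference of 0.66 ± 0.28 (adjusted p = 0.516). Mrps18a was at -0.19 and -0.78 at 2 h against -0.12 and 0.35 in control, a difference of -0.60 ± 0.32 (adjusted p = 0.546). Mrps18b differed by 0.22. The 2 h arrays were thus the highest for Mrps18c and the lowest for Mrps18a, and the difference between the paralogs was not tested.

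A total of 106 probes measured the 76 genes, and 25 genes had 2 or more tested probes, giving 28 pairs of the probe used and another. At 2 h of SEMA3E against control, 15 pairs had the same sign and 13 did not, with medians of 0.22 for the probes used and 0.02 for the others. For cytochalasin D against control, 24 of the 28 pairs had the same sign. The widest disagreement at 2 h was that of Mrpl10, a stalk base gene, at 0.35 for the probe used and -1.73 for the other. Its other probe was not well above background on 1 of the 8 arrays and read -6.24 on SEMA3E 2 h replicate 2. For Mrps26 the probe used read 0.36 and the other -0.96, with both well above background on all 8 arrays. Other probes that were well above background on all 8 arrays also departed from values given above. At 2 h the probe used and the other read 0.68 and -0.06 for Mrpl22, and -0.28 and 0.16 for Mrpl4. They read -0.65 and -0.002 for Mrpl15, and 0.70 and 0.17 for Mrps36. For cytochalasin D against SEMA3E at 8 h they read -1.02 and -0.33 for Mrps14, and 0.67 and 0.33 for Mrpl15. For cytochalasin D against control they read -0.80 and -0.34 for Mrps14, and for SEMA3E 8 h against 2 h -0.70 and -0.25 for Mrps36.

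**Figure D4:**
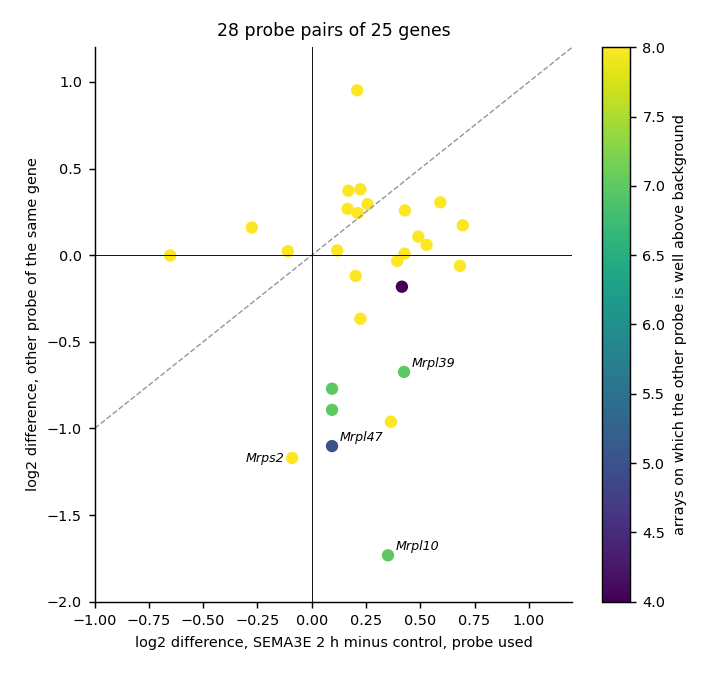
Log2 difference between SEMA3E 2 h and control for the probe used (horizontal) and another probe of the same gene (vertical), with 28 pairs from 25 genes coloured by the number of arrays on which the other probe was well above background. Mrpl10, Mrpl39 and Mrpl47, whose other probes were not well above background on every array, lie far below the dashed line of equality. So do Mrps2 and the unlabelled pair of Mrps26, whose other probes were well above background on all 8 arrays.

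Other genes of mitochondrial translation gave no passing gene either. Of 25 tested genes for ribosome assembly and rRNA modification, 9 were above control at 2 h of SEMA3E, with a median of -0.06, and 0 passed in any of the 5 comparisons. Of 15 tested translation factor genes, 6 were above control at 2 h, with a median of -0.19, and 0 passed. Mrpl57, named Mrp63 on the array and so outside the name rule, was like many members at 2 h, with 3.24 and 3.45 against 2.98 and 2.20 in control, a difference of 0.75 ± 0.31 (adjusted p = 0.516). Gadd45gip1, a large subunit protein at the tunnel exit, read 1.99 and 1.77 at 2 h against 1.34 and 1.12, a difference of 0.65 ± 0.25 (adjusted p = 0.516).

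Tsfm, the elongation factor that recharges EF-Tu, was lower at 2 h, with -2.10 and -2.37 against -1.30 and -0.95 in control, a difference of -1.11 ± 0.35 (adjusted p = 0.494) without overlap. Mettl17, a methyltransferase-like factor of small subunit assembly, read -5.75 and -5.18 at 8 h of SEMA3E against -6.76 and -6.28 in control. It was well above background on 7 of 8 arrays, and its difference was 1.05 ± 0.30 (adjusted p = 0.687). The 8 h arrays were the 2 highest for Mettl17, and the difference of cytochalasin D from SEMA3E at 8 h was -1.27 ± 0.30 (adjusted p = 0.413). Rbfa, a factor of small subunit maturation, read -2.81 and -2.64 at 8 h of SEMA3E and -3.58 and -4.93 with cytochalasin D, a difference of -1.53 ± 0.43 (adjusted p = 0.413).

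Other sets of housekeeping genes also read higher at 2 h. Both SEMA3E 2 h arrays lay above the rest for 55 of 77 cytosolic ribosomal protein genes (71.4%) and 18 of 35 genes of NADH dehydrogenase subunits (51.4%). The share was 32.9% (25 of 76) for the mitochondrial ribosomal set, as reported above, and 10.2% over all genes. The median 2 h differences were 0.52 for the cytosolic ribosomal protein genes and 0.46 for the NADH dehydrogenase genes, against 0.05 over all genes. For these lists no other scaling or background correction was applied, and genes of like brightness were not compared. On control replicate 1 the median deviation was 0.17 for both the NADH dehydrogenase genes and the 76 genes, and -0.08 for the cytosolic ones. Control replicate 2 was below 0 for all these lists, at -0.33, -0.19 and -0.26. With cytochalasin D against control, 5 of 35 NADH dehydrogenase genes were above 0, with a median of -0.19, and 51 of 77 cytosolic ribosomal protein genes, with a median of 0.07. The difference between the lists was not tested.

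**Figure D5:**
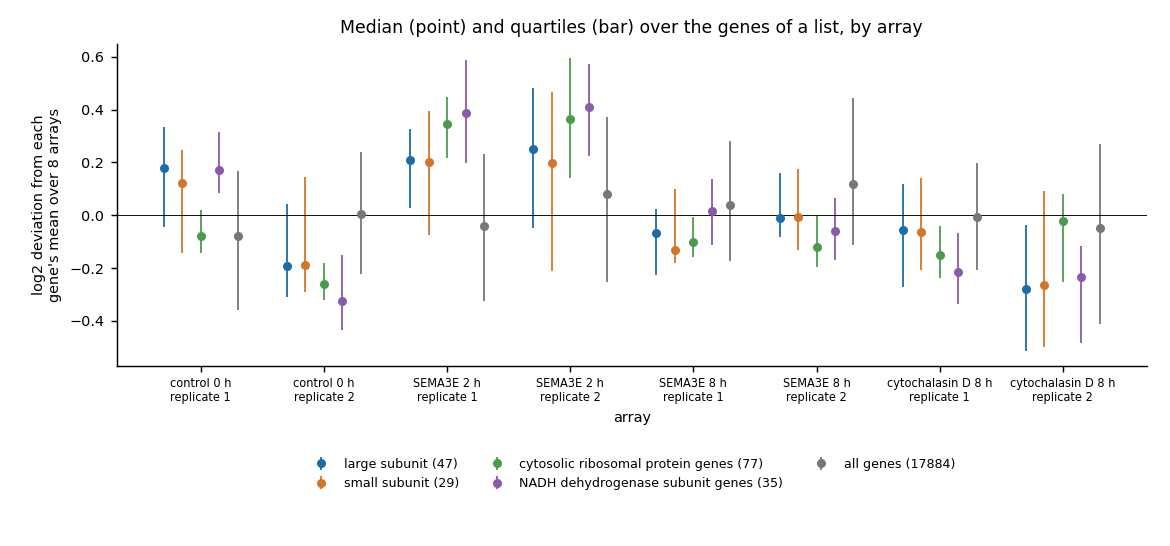
Median (point) and quartiles (bar) of the log2 deviation from each gene's own mean, by array, for the 2 mitochondrial ribosomal subunits, the cytosolic ribosomal protein genes, the NADH dehydrogenase subunit genes and all genes. The subunits lie together on every array, and all 4 lists stand above the all-gene median on both SEMA3E 2 h arrays.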

How the data were processed

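Total RNA of each sample was labelled with Cy3 and read on 1 array in 1 colour. The deposited files hold scanner output from Agilent Feature Extraction 11.5.1.1, per the file headers, and the values used are its processed signal, an intensity with background already subtracted by the scanner software. A deposited table of the authors' normalized values was used as an alternative only. Its values were taken as intensities and converted to log2, and its baseline step is not given in the sources used here. The headers name build mm9; probes were not mapped, so no probe coordinates are given.

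Control spots were left out and outlier spots set as missing, repeat spots were averaged, and log2 intensity was set relative to the array's 75th percentile, taken over 18450 probes that cleared background everywhere. Of 55698 probes, 24459 had values on all arrays and were well above background on both arrays of at least 1 group. A gene took its tested probe with the highest mean, which left 17884 genes, and 109 probes were lost to outlier marks. Groups were compared with limma 3.58.1 in R 4.3.3 over all 8 arrays, two-sided, with Benjamini-Hochberg adjustment over all genes, and an adjusted p under 0.05 counted as passing. The fit had 4 residual degrees of freedom, and the number of arrays limits its precision. The scripts were tested on simulated data. Errors after ± are standard errors.

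The genes described and the lists were chosen with earlier results of these data known. Values in full were given for at most the 3 genes of lowest p in each direction, subunit and comparison. They were also given for up to 6 whose arrays stood furthest apart by group and for the extremes of each role group. Among other mitochondrial translation genes, they were given for the 2 of lowest p in each direction. Levels of different probes were compared only for the cell type markers, for the brightness of genes and in choosing a gene's probe. Replicates are biological per the labels. Replicate numbers were shared between groups but did not pair the samples, so the fit has no block. Alternatives changed the scaling, background correction, filter, probe choice, block, GC correction and samples.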

Additional observations from a re-analysis of the deposited data

How the results depend on the processing

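The 2 arrays per group and the dim SEMA3E 2 h arrays limit what can be seen. No mitochondrial ribosomal protein gene passed the test in the 5 comparisons under any alternative run (109 of 110 counts), except Mrps11 in SEMA3E 8 h against 2 h without SEMA3E 2 h replicate 1, so that this count ran from 0 to 1 over left-out arrays. The lone array of a group was then assumed to vary like the other groups. The set's median kept to within the spread between replicates in 96 of 110 alternatives, and the large minus small subunit value in 82 of 115. Of 1320 differences of single genes, 1308 kept their direction and side of the threshold. Some alternatives cannot move a median or a direction. These include leaving out an array of a group not compared, the replicate block, the intensity trend and a fit of only the groups compared. Another is the filter to probes well above background on all 8 arrays, which the probes used for all 76 genes already met. All such alternatives were counted too, so part of this agreement was fixed in advance. The causes of the changes below were not tested, other than that a new scaling shifts all genes of an array equally.

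Scaling by the median of all probes gave set medians of -0.3488 for SEMA3E 2 h against control, -1.134 for SEMA3E 8 h, -0.3165 for cytochalasin D, 0.8151 for cytochalasin D against SEMA3E at 8 h and -0.8436 for SEMA3E 8 h against 2 h. Scaling by the 75th percentile over all probes gave -0.1925 for SEMA3E 8 h, 0.08142 for cytochalasin D against SEMA3E and -0.5401 for SEMA3E 8 h against 2 h, and quantile normalization gave -0.1078 for the last. The median of all probes lies among probes not well above background. Under it these SEMA3E 8 h differences from control reversed: Mrpl1 to -0.549, Mrpl10 to -0.8319, Mrpl37 to -0.4416, Mrps11 to -0.6569, Mrps5 to -0.7827 and Mrps9 to -0.6881. Between cytochalasin D and SEMA3E at 8 h, Mrpl36 reversed to 0.2949, Mrps12 to 0.5984 and Mrps36 to 0.551.

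The large minus small subunit value for SEMA3E 2 h against control was 0.1198 with quantile normalization, 0.2274 with normexp, 0.2092 with normexp and quantile normalization, 0.1487 with the mean over probes, 0.2193 in the authors' deposited table and 0.02989 with subunits by known structure. For SEMA3E 8 h it was -0.04567 with normexp, -0.02967 with normexp and quantile normalization, -0.003162 with the mean over probes and -0.002896 in the deposited table. For cytochalasin D it was -0.1136 with quantile normalization and -0.02304 in the deposited table. For cytochalasin D against SEMA3E it was 0.01095 with the mean over probes, -0.008382 with the probe GC trend removed and 0.0342 in the deposited table. For SEMA3E 8 h against 2 h it was -0.009116, -0.2081, -0.2347, -0.1848, -0.253 and -0.0107 in the order given for 2 h.

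Over left-out arrays the set's median ran from 0.1152 to 0.4185 for SEMA3E 2 h against control, from -0.2055 to 0.1392 for SEMA3E 8 h, from -0.3095 to 0.01931 for cytochalasin D, from -0.2234 to -0.001589 for cytochalasin D against SEMA3E, and from -0.2917 to -0.224 for SEMA3E 8 h against 2 h. The large minus small value ran, in the same order, from -0.0362 to 0.08131, from -0.08823 to 0.06316, from -0.09339 to 0.0245, from -0.07898 to -0.007561 and from -0.07706 to 0.04874. Mrps2 ran from -0.04959 to 1.083 for cytochalasin D against control, and Mrps28 from -0.7214 to 0.2263 for SEMA3E 8 h against control. The lowest SEMA3E 8 h median was without control replicate 2 and the highest without control replicate 1.

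With the replicate number as a block, 0 of the 76 genes passed in each comparison and the medians were those without it; over all genes 7 passed for SEMA3E 8 h against control, where 1 did without the replicate block. Samples of the same number did not deviate together, with correlations from -0.149 to 0.140. Over all genes the deposited table called 20, 12, 9, 13 and 20 in the 5 comparisons in the order above, scaling by the median of all probes 18, 0, 2, 7 and 36, and the fit without SEMA3E 2 h replicate 1 called 426 at 2 h against control and 463 at 8 h against 2 h.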
